A study of Mus musculus with 2 samples.

Results

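Langerhans cells were chosen from the single-cell RNA library of imiquimod (IMQ)-treated mouse epidermis by a rule on their counts. A cell was kept when it had at least 200 genes and at most 10% mitochondrial unique molecular identifiers (UMIs, each counting 1 captured transcript), at least 2 UMIs of *Cd207*, at least 50 UMIs of *H2-Aa*, *H2-Ab1*, *H2-Eb1* and *Cd74* per 10000 UMIs of the cell, and at most 2 UMIs of *Trdc*. The rule kept 161 of the 4173 epidermal cells past the filter on genes and mitochondrial UMIs (3.86%, exact binomial 95% interval 3.29 to 4.49%), out of 8920 such cells and 10634 barcodes in both libraries of the series. The levels of these 6 genes are therefore a description of the choice and not a finding.

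Both libraries came from wild-type C57BL/6 mice, labelled as 10 weeks of age (the methods give a younger age for the study's mice), whose ears received imiquimod on 5 days in a row. Imiquimod is a Toll-like receptor agonist whose cream gives mouse skin a psoriasis-like inflammation. The epidermis was parted from the dermis by overnight Dispase digestion, and by the methods of the study all live epidermal cells and the live CD45+ dermal cells went into separate Chromium 3′ v3 libraries. There was 1 library per tissue and no untreated library, and the number of mice behind each is not given in the sources used here. No test between groups was possible, and each interval below is a 95% interval for counting error within these libraries only.

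Langerhans cells are the dendritic antigen-presenting cells of the epidermis. They renew locally, are held among keratinocytes by E-cadherin, and carry langerin (*Cd207*), the lectin of Birbeck granules. They depend on interleukin-34 acting on the CSF1 receptor and on TGF-beta. After activation they lower their adhesion molecules, gain the chemokine receptor CCR7 and leave for the draining lymph node.

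The 161 cells held 1528067 UMIs, 1.45% of the UMIs of all epidermal cells past the filter. A cell had between 1073 and 67736 UMIs with a median of 8420, and between 516 and 6548 genes with a median of 2033. For comparison, 3 groups of cells were gated: 2994 epidermal keratinocytes (median 31212.5 UMIs per cell), 447 epidermal γδ T cells (median 2423) and 99 dermal dendritic cells (median 12024, MHC class II with *Cd209a* or *Flt3*, at most 1 *Cd207* UMI and at most 2 C1q UMIs). *Cd207* ran from 2 to 64 UMIs per Langerhans cell with a median of 7, and MHC class II transcripts from 121 to 1234 per 10000 UMIs with a median of 713.

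**Figure D1:**
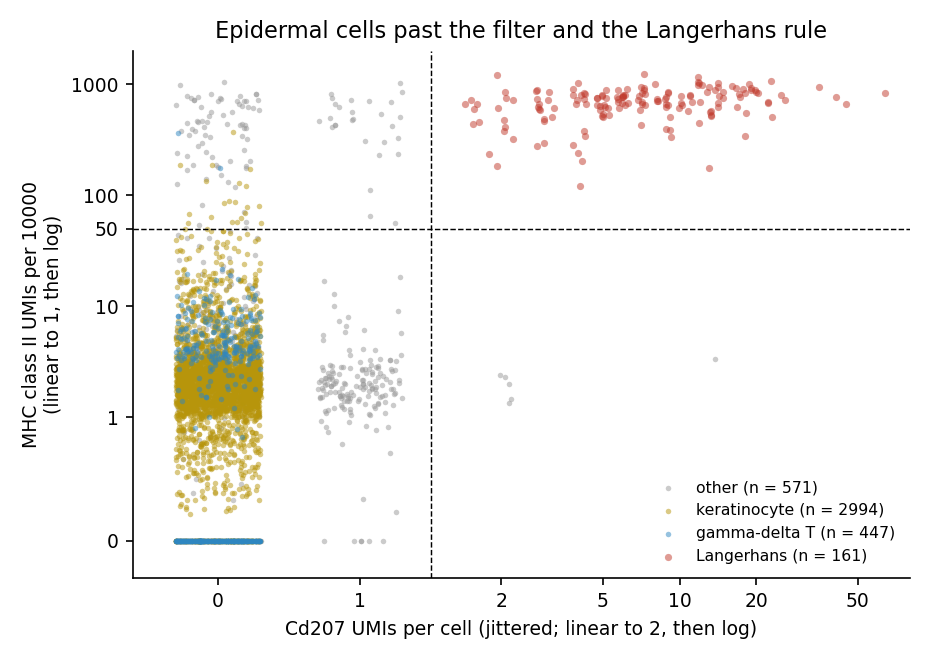
Epidermal cells past the filter, with *Cd207* UMIs per cell on the x axis (jittered) and MHC class II UMIs (*H2-Aa*, *H2-Ab1*, *H2-Eb1* and *Cd74*) per 10000 UMIs on the y axis, both linear near 0 and then logarithmic, coloured by gated group; dashed lines mark the rule. The 161 Langerhans cells start at 121 MHC class II UMIs per 10000, while the 6 cells with 2 or more *Cd207* UMIs below the line reach at most 3.34.

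The limit on MHC class II fell in a gap, and the limit on *Cd207* did not. The 6 cells with at least 2 *Cd207* UMIs below the MHC class II limit had at most 3.34 per 10000, and no cell was left out for *Trdc*. The 17 cells just inside the *Cd207* limit, with 2 UMIs, had a median of 597 MHC class II UMIs per 10000, and 13 of them held *H2-M2*. The 27 cells just outside, with 1 *Cd207* UMI and enough MHC class II, had a median of 482, and 11 of them held *H2-M2*. A further 96 cells had enough MHC class II and no *Cd207* UMI. The same rule kept 16 of 4747 dermal cells (0.337%, 0.193 to 0.547%), which had 18.1 CPM (UMIs per 1000000 UMIs summed over the cells) of *Epcam* and 9.06 CPM of *H2-M2* against 3374 CPM of *Lyz2* and 937 CPM of *Pf4*, transcripts of macrophages. The 2 libraries shared 45 cell barcodes, 2 of them among the 161 cells.

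Markers that the rule had not used matched the label. Of 13 other Langerhans cell markers, 12 were detected, and their summed level was 13844 CPM against 768 CPM in γδ T cells, 528 CPM in keratinocytes and 2849 CPM in dermal dendritic cells. *Mfge8* alone gave 14863 of the 21154 UMIs of this sum. *Mfge8*, a secreted bridge to phosphatidylserine on dying cells, ran from 0 to 329 UMIs per cell with a median of 86 and was found in 159 of 161 cells. *H2-M2*, a nonclassical MHC class I gene, ran from 0 to 40 UMIs with a median of 3 and was found in 134 cells. *Epcam* ran from 0 to 26 UMIs with a median of 5 and was found in 151 cells. Their levels were 9727 CPM for *Mfge8* (9571 to 9884), 575 CPM for *H2-M2* (538 to 615) and 667 CPM for *Epcam* (627 to 709). The label held less well for 5 of the 161 cells, which had at most 2.54 *Mfge8* UMIs per 10000 while the next cell had 18.6. These 5 held 6 *Mfge8* UMIs in all, 7 of *Epcam* and none of *H2-M2*, with 357 CPM of *Lyz2* against 6.11 CPM in the other 156, and each held *Cd207*. Levels of the C1q genes and *Il1b* are given with and without them, an alternative chosen after seeing the data.

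Of the 13 markers, 10 were at least 2-fold higher and 2 lower than in keratinocytes (15.5% and 22.6% of all genes), and of 12 past the minimum 10 were higher and 2 lower than in γδ T cells (6.40% and 30.9%). Against dermal dendritic cells 8 of 12 were higher, 1 lower and 3 in between (13.7% and 18.0% of all genes were higher and lower). *H2-M2* had 0 UMIs in the 447 γδ T cells and 0.815 CPM in keratinocytes, *Mfge8* stood at 67.8 and 32.5 CPM there, and *Epcam* at 40.6 and 56.7 CPM. Although they were 3.86% of the filtered epidermal cells, the Langerhans cells held 75.8% of the *Mfge8* UMIs and 79.7% of the *H2-M2* UMIs of all these cells. *Csf1r*, the receptor for interleukin-34 and CSF1, was found in 85.7% of Langerhans cells and 0.895% of γδ T cells. After thinning each cell to 1000 UMIs, so that depth could not set the shares, *Csf1r* was found in 29.2% of Langerhans cells, 0.226% of γδ T cells and 0.140% of keratinocytes. Of the list, *Cd1d1* had 0 UMIs. *Ptprc*, which encodes CD45, was found in 37.9% of the cells at 55.6 CPM against 307 CPM in γδ T cells.

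Defining markers of most other immune cells were at or near 0. Of the monocyte markers *Ly6c2*, *Ccr2* and *Plac8* had 0 UMIs, and so did the neutrophil markers *Csf3r* and *Ly6g*, the cDC1 marker *Clec9a*, the B cell markers *Cd79a* and *Ms4a1* and the mast cell markers *Mcpt4*, *Cma1* and *Cpa3*. A count of 0 here allows up to 1.96 CPM, or a UMI in up to 1.86% of the cells. The γδ T cell markers together stood at 56.3 CPM against 15675 CPM in γδ T cells. The pDC marker list stood at 147 CPM, of which *Ly6d* made up 222 of 224 UMIs, and at 802 CPM in keratinocytes. The melanocyte list summed to 1 UMI. The cDC1 and cDC2 lists stood at 30.1 and 97.5 CPM, against 79.7 and 888 CPM in dermal dendritic cells, with *Cadm1* and *Mgl2* as their most abundant genes. The macrophage list stood at 506 CPM, of which *C1qa* gave 469 of 773 UMIs, and *Cd163* had 0. The 5 cells low in *Mfge8* held 201 of the 773, and the other 156 stood at 389 CPM.

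Keratinocyte RNA was the exception. All 9 keratinocyte markers were detected in Langerhans cells, with a summed level of 9379 CPM against 23760 CPM in γδ T cells, 41870 CPM in keratinocytes and 30.3 CPM in dermal dendritic cells. The γδ T sum was set by 24 cells of over 10000 UMIs each, at 39941 CPM, while the other 423 stood at 10454 CPM, near the Langerhans cells. Keratin transcripts made up 0.261 to 2.05% of the UMIs of a Langerhans cell with a median of 0.467%, against medians of 0.708% in γδ T cells and 2.74% in keratinocytes. *Krt14* was in all 161 cells, with a median of 27 UMIs, and the richest cell held 1025. The cell with the most UMIs of all was the only one over 2% keratin, and 8 cells exceeded 1%. The part of free RNA and of joint capture with keratinocytes in these values was not tested. *S100a8* and *S100a9*, at 3198 and 3409 CPM, also stood below their levels in γδ T cells (10035 and 11311 CPM, or 4434 and 4692 CPM in the 423) and keratinocytes (14305 and 16895 CPM).

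**Figure D2:**
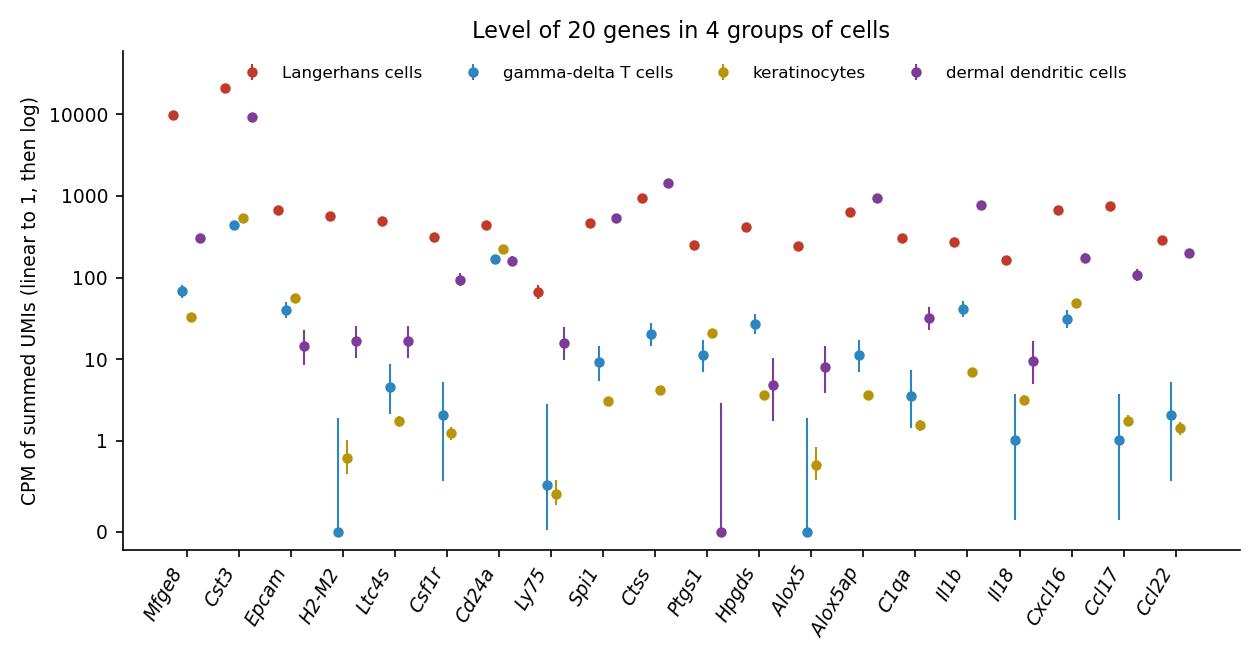
Level of 20 genes in CPM of summed UMIs (y axis, linear to 1 and then logarithmic) in Langerhans cells, epidermal γδ T cells, epidermal keratinocytes and dermal dendritic cells; points are group sums and bars their exact Poisson 95% intervals. *Mfge8*, *H2-M2* and *Ltc4s* were at least 29.8-fold higher in Langerhans cells than in each other group, while *Spi1*, *Ctss* and *Alox5ap* were near the level of dermal dendritic cells.

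The 5′ flanks of the genes that most set these cells apart are shown for *Cd207*, which the rule used, and *H2-M2*, the gene with the largest ratio to keratinocytes. Both lie on the minus strand of GRCm38, *Cd207* at chr6:83671215-83677857 and *H2-M2* at chr17:37480851-37483552. The sequences (RefSeq, GRCm38.p6) run from 250 bases before to 50 bases after the start of the gene, 5′ to 3′ on the gene's strand, at chr6:83677808-83678107 and chr17:37483505-37483804. Capitals mark GAGGAA on either strand (TTCCTC on the strand shown), the core letters bound by PU.1, the product of *Spi1*.
Cd207: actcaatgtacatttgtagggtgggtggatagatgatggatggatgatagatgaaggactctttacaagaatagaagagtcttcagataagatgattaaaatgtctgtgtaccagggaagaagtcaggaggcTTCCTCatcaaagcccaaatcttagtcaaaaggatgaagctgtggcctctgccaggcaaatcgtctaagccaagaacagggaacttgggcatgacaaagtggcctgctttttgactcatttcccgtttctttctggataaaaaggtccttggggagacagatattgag
H2-M2: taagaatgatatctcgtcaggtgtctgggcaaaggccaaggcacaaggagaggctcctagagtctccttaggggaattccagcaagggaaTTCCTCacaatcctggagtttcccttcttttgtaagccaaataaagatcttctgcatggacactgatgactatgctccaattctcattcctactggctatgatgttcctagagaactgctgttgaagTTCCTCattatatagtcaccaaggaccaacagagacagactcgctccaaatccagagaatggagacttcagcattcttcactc
The *Cd207* window held 1 match and the *H2-M2* window 2. Of *Cd207* and the 10 genes with the largest ratios to keratinocytes, 10 had a RefSeq entry with 14 windows in all, of which 5 held a match (35.7%), while 28.3% of all 32851 windows held one, so that a match is a description of the letters and not of binding. *Spi1* itself was found in 91.9% of Langerhans cells at 465 CPM (432 to 501) against 9.24 CPM in γδ T cells, 3.12 CPM in keratinocytes and 536 CPM in dermal dendritic cells.

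The comparison with keratinocytes, the other epidermal cells around them, covered the 12939 genes whose UMIs summed to 20 or more in the pair of groups. Langerhans cells were at least 2-fold higher for 2001 genes (15.5%) and at least 2-fold lower for 2923 (22.6%), on the log2 ratio of CPM with a pseudocount of 0.5 UMI. The 10 largest ratios, among genes found in at least 10% of the cells of the higher group, were those of *H2-M2*, *Xlr*, *Serpind1*, *Slamf7*, *Rgs18*, *Rtn1*, *Card9*, *Rbp4*, *Pkib* and *Ccl17*. They ran from 423-fold for *Ccl17* (359 to 502) to 706-fold for *H2-M2* (557 to 906). *Card9*, the adaptor of C-type lectin receptor signalling, was at 33.4 CPM against 0.0652 CPM. The 10 smallest were *Spink5*, *Epha1*, *Ggt6*, *Egfl7*, *Ascl2*, *Catsperz*, *Abca12*, *Kcnk1*, *Rad54l* and *Trnp1*, all with 0 UMIs in the Langerhans cells. Of these *Spink5*, a protease inhibitor of the cornifying epidermis, was at least 10.4-fold lower against a floor of 3 UMIs.

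Set against the epidermal γδ T cells, the other resident immune cells of this library, 555 of 8674 genes were at least 2-fold higher (6.40%) and 2681 at least 2-fold lower (30.9%). The median log2 ratio over all tested genes was -0.56, and the γδ T cells were the shallower group by their median, though 24 of the 447 held over 10000 UMIs each and 45.1% of the UMIs of the group. Without these 24 cells, an alternative chosen after seeing the data, 623 genes were higher and 2747 lower. The 10 genes with the largest ratios were *H2-M2*, *Alox5*, *Ccl17*, *Zmynd15*, *Ffar4*, *Rtn1*, *Csf2rb2*, *Serpind1*, *Itgax* and *Hlx*. *Alox5*, the 5-lipoxygenase that begins leukotriene synthesis, had 373 UMIs in 126 of 161 Langerhans cells and none in γδ T cells, at least 158-fold higher. *Itgax*, which encodes CD11c, had 70 UMIs in 50 Langerhans cells and none in γδ T cells. The 10 smallest ratios were those of *Atp1b1*, *Prf1*, *Ctsw*, *Trat1*, *Il12rb2*, *Tcrg-C1*, *Nkg7*, *Cd3g*, *Fermt2* and *Rab4a*. *Prf1*, which encodes perforin, had 0 UMIs in Langerhans cells and 381 in γδ T cells.

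Dermal dendritic cells served as the other antigen-presenting group, but tissue, sort and library differ along with the cell type and cannot be told apart. The group was also rich in monocyte markers, which summed to 1174 CPM against 888 CPM for its cDC2 list, with *Plac8* in 83.8%, *Ccr2* in 66.7% and *Ly6c2* in 52.5% of its cells. Of 7221 genes, 989 were at least 2-fold higher in Langerhans cells (13.7%) and 1303 at least 2-fold lower (18.0%). Of the 10 largest ratios, 8 were genes whose level was higher still in keratinocytes (*BC100530*, *Krtdap*, *Lgals7*, *Urah*, *S100a14*, *Krt16*, *Fgfbp1* and *Sprr2a3*). *Krtdap*, for example, stood at 435 CPM in Langerhans cells, 1357 CPM in γδ T cells and 2046 CPM in keratinocytes, with 0 UMIs in dermal dendritic cells. The other 2 were *Ptgs1* and *Tspan18*, which were at 250.6 and 126 CPM in Langerhans cells, 11.3 and 1.03 CPM in γδ T cells and 21.1 and 0.391 CPM in keratinocytes. The 10 smallest ratios were those of *Plac8*, *Tspan13*, *Saa3*, *Ccr2*, *Dcn*, *Ly6c2*, *Ccl5*, *Cd209d*, *Cpxm1* and *Col3a1*. *Plac8* and *Ccr2*, both abundant in monocyte-derived cells, had 0 UMIs in Langerhans cells and were at least 415-fold and 87.7-fold lower. *Dcn* and *Col3a1* are matrix genes of fibroblasts, and *Dcn* was found in 67.7% of the dermal dendritic cells.

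Of 17 genes of the MHC class II pathway 6 were at least 2-fold lower than in dermal dendritic cells and 10 lay within 2-fold. Of the class I pathway 10 of 19 were lower. The class II list leaves out the genes of the rule (*H2-Aa*, *H2-Ab1*, *H2-Eb1* and *Cd74*). Over all genes of this comparison 13.7% were at least 2-fold higher and 18.0% lower. Of 20 genes of the MHC class II pathway, 17 passed the minimum, of which 1 was at least 2-fold higher, 6 at least 2-fold lower and 10 in between, with a median log2 ratio of -0.41 against -0.01 over all genes. *H2-DMa*, a subunit of the peptide exchanger, was at 1993 CPM (1923 to 2065), 1.67-fold higher (1.57 to 1.78). *H2-DMb2* was 2.65-fold higher (2.32 to 3.03), and *Ctss*, which trims the invariant chain, was 1.54-fold lower (1.43 to 1.65). The 6 lower were *Cd83*, 9.28-fold lower (6.28 to 14.2), the proteases *Lgmn*, *Ctsl* and *Ctsh*, *H2-Ob* and *Ciita*, the coactivator of class II genes, at 49.1 against 102 CPM. Of 21 genes of the MHC class I pathway, 19 passed, with 1 higher and 10 lower at a median of -1.09. The one higher was *H2-M2*. *H2-D1*, a classical class I heavy chain, was 3.16-fold lower (2.90 to 3.44) and *B2m*, the light chain, was at 1453 CPM against 2300 CPM, while the immunoproteasome subunit *Psmb8* stood at 847 and 779 CPM. Compared with keratinocytes 11 of 20 class I genes were higher and 1 lower, at a median of 1.33 (-0.27 over all genes, 15.5% higher and 22.6% lower). Compared with γδ T cells 3 of 19 were higher and 3 lower, at a median of 0.03 (-0.56 over all genes, 6.40% and 30.9%).

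Several transcripts of lipid mediator enzymes were high, on a list drawn up after their values were seen. Of 15 genes of eicosanoid synthesis, 11 passed the minimum against dermal dendritic cells, with 5 at least 2-fold higher, 2 lower and 4 in between, against 13.7% and 18.0% of all genes. Compared with keratinocytes 5 of 13 were higher and 3 lower (15.5% and 22.6% of all genes). Compared with γδ T cells 6 of 11 were higher and 3 lower (6.40% and 30.9%). *Hpgds*, the haematopoietic prostaglandin D2 synthase, was at 414 CPM and found in 85.7% of Langerhans cells, 86.7-fold higher than in dermal dendritic cells (39.6 to 237). *Ptgs1*, cyclooxygenase 1, ran from 0 to 14 UMIs per cell and was found in 124 cells, against 0 UMIs in dermal dendritic cells (at least 105-fold). *Alox5* was 30.6-fold higher (16.5 to 64.4) and *Ltc4s*, the leukotriene C4 synthase, 29.8-fold higher (19.4 to 48.4). *Alox5ap*, the partner of 5-lipoxygenase, was at 637 CPM against 932 CPM. *Ptgs2*, the inducible cyclooxygenase, had 4 UMIs, and *Ptgds*, *Alox12* and, with 2 UMIs, *Alox15* were at or near 0.

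Of 38 cytokine and chemokine genes, 21 passed the minimum against dermal dendritic cells, 4 higher and 13 lower, with a median log2 ratio of -1.59 (-0.01 over all genes, of which 13.7% were higher and 18.0% lower, so that the 4 higher are near the background). In the epidermal library 6 of 16 were higher and 5 lower than in γδ T cells (6.40% and 30.9% of all genes). Against keratinocytes 11 of 33 were higher and 10 lower (15.5% and 22.6%). *Cxcl16* was found in 152 of 161 Langerhans cells, with a median of 4 UMIs, and was 3.82-fold higher than in dermal dendritic cells (3.30 to 4.45). *Il18*, a cytokine released by inflammasomes, was in 95 cells at 164 CPM (144 to 185) against 9.56 CPM. *Ccl17*, a ligand of CCR4, was at 749 CPM against 108 CPM, but in 53 cells only, with 312 UMIs in each of the 2 richest cells and 68.6% of its UMIs in 5 cells. *Ccl22*, the other ligand of CCR4, was in 37 cells, with 67.4% of its UMIs in 5 of them. *Il1b* was in 49 cells (30.4%, against 3.58% of γδ T cells) at 270 CPM (244 to 297) against 766 CPM in dermal dendritic cells and 41.6 CPM in γδ T cells. The 5 cells low in *Mfge8* held 92 of its 412 UMIs, 67 of them in 1 cell, and the other 156 stood at 217 CPM. Chemokine and interleukin transcripts were thus spread over most cells for *Cxcl16* and *Il18* and held largely by a few cells for *Ccl17* and *Ccl22*. *Tnf* had 57 UMIs in 32 cells. *Ccl3* and *Ccl4*, inflammatory chemokines, were 36.8-fold (19.7 to 77.5) and 26.9-fold lower (16.8 to 45.8).

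Several other cytokine genes of the list were not detectable at this depth or nearly so. *Il6*, *Il10*, *Il12a*, *Il12b*, *Il15*, *Il27* and *Csf2* had 0 UMIs in the 161 cells, and *Il23a* had 2 UMIs in 1 cell. The dermal dendritic cells held 16 UMIs of *Il6*, 13 of *Il10* and 2 of *Il23a*.

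The receptor for imiquimod was not detected either, while the levels of its partners varied. *Tlr7*, the receptor for imiquimod in mice, had 0 UMIs in Langerhans cells and 3 in dermal dendritic cells, and *Tlr8* and *Tlr9* had 0 in both. Of 20 genes of Toll-like receptors and adaptors, 9 passed against dermal dendritic cells, with none higher and 4 lower, at a median of -0.95 against -0.01 over all genes, of which 18.0% were lower. The list had 3 of 11 higher and 1 lower against keratinocytes, at a median of 0.21 (-0.27 over all genes, 15.5% higher and 22.6% lower). It had 1 of 7 higher and 2 lower against γδ T cells, at a median of -0.39 (-0.56 over all genes, 6.40% and 30.9%). *Unc93b1*, which carries endosomal Toll-like receptors from the endoplasmic reticulum, had 2 UMIs in Langerhans cells and 223 in dermal dendritic cells, 136-fold lower (37.1 to 1128). *Irf7* had 1 UMI against 35. *Myd88*, the adaptor of most of these receptors, was at 36.0 and 62.9 CPM, and *Irf5* at 78.5 and 127 CPM. Of 25 interferon-stimulated genes, 16 passed, with 1 higher and 11 lower at a median of -1.62. Against keratinocytes the same list went the other way, with 10 of 18 higher and 1 lower at a median of 2.17 (-0.27 over all genes). Against γδ T cells of the same library none of 9 was higher and 5 were lower, at a median of -1.10 against -0.56 over all genes, of which 30.9% were lower. *Bst2* was at 68.1 CPM, 3.63-fold lower than in dermal dendritic cells (2.90 to 4.58), *Ifi27l2a* 35.0-fold lower (21.9 to 59.5), and *Ifit1*, *Ifit2*, *Ifit3*, *Mx1* and *Rsad2* had 0 UMIs.

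Genes that respond quickly to stress or stimulation were lower in Langerhans cells for most of their list. All 24 genes of NF-kB feedback, immediate-early and heat shock response passed the minimum, of which 21 were at least 2-fold lower than in dermal dendritic cells and none higher, at a median of -2.23. *Hspa1a*, an inducible heat shock protein, was at 335 CPM against 7333 CPM, 21.9-fold lower. *Junb* was 4.05-fold and *Jund* 3.27-fold lower, and *Jun* was at 70.0 CPM against 1101 CPM. Over all genes 18.0% were lower and the median was -0.01. Within the epidermal library 8 of the 24 were lower than in γδ T cells, near the share of all genes (30.9%), and 3 were lower than in keratinocytes, under that of all genes (22.6%). Handling of the 2 tissues was not the same, and its part was not tested.

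Receptors and transcription factors differed from gene to gene. Of 23 C-type lectin, scavenger and Fc receptor genes, 18 passed, with 3 higher and 12 lower at a median of -2.76, against 13.7% and 18.0% of all genes, so that the 3 higher are near the background. The dermal group was gated in part on *Cd209a*, itself a C-type lectin gene. Within the epidermal library 15 of 15 were higher than in keratinocytes, at a median of 4.27, and 8 of 10 higher and none lower than in γδ T cells, at a median of 3.44 (15.5% and 6.40% of all genes were higher). *Clec4n*, which encodes Dectin-2, was found in 83.9% of the cells at 457 CPM, 2.17-fold higher (1.88 to 2.51), and *Ly75*, which encodes DEC-205, 4.19-fold higher (2.58 to 7.15). *Clec10a* was 216-fold lower (59.4 to 1791), with 2 UMIs in Langerhans cells. *Cd209a*, which helped to define the dermal group, had 1 UMI. Of 20 transcription factors, 17 passed against dermal dendritic cells, none higher and 12 lower at a median of -1.80 (-0.01 over all genes, of which 18.0% were lower). Against keratinocytes 9 of 17 were higher and 4 lower, at a median of 1.14 (-0.27 over all genes, 15.5% higher and 22.6% lower). Against γδ T cells 3 of 16 were higher and 6 lower, at a median of -0.74 (-0.56 over all genes, 6.40% and 30.9%). *Id2* and *Runx3*, both needed for Langerhans cell development, were at 386 and 83.8 CPM against 582 and 62.1 CPM in dermal dendritic cells. *Zeb2* had 1 UMI against 126, and *Irf8* was 3.71-fold lower (3.04 to 4.54). Of the chemokine receptors, *Ccr1* was at 45.8 and 36.7 CPM, *Ccr2*, *Ccr6* and *Cxcr4* had 0 UMIs, and 34 of 41 *Cx3cr1* UMIs were in 1 cell. Of 22 genes of the TGF-beta and CSF1 receptor axis, 13 passed against dermal dendritic cells, 2 higher and 5 lower at a median of -0.45. Against keratinocytes 5 of 21 were higher and 9 lower, at a median of -0.73 (15.5% and 22.6% of all genes). Against γδ T cells 3 of 14 were higher and 4 lower, at a median of -0.69 (6.40% and 30.9%). Among the receptors for growth factors *Csf1r* was 3.30-fold higher than in dermal dendritic cells (2.69 to 4.07). The 2 subunits of the GM-CSF receptor, *Csf2ra* and *Csf2rb*, stood at 116 and 124 CPM against 107 and 126 CPM. *Axl*, a receptor for apoptotic cells, had 9 UMIs.

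**Figure D3:**
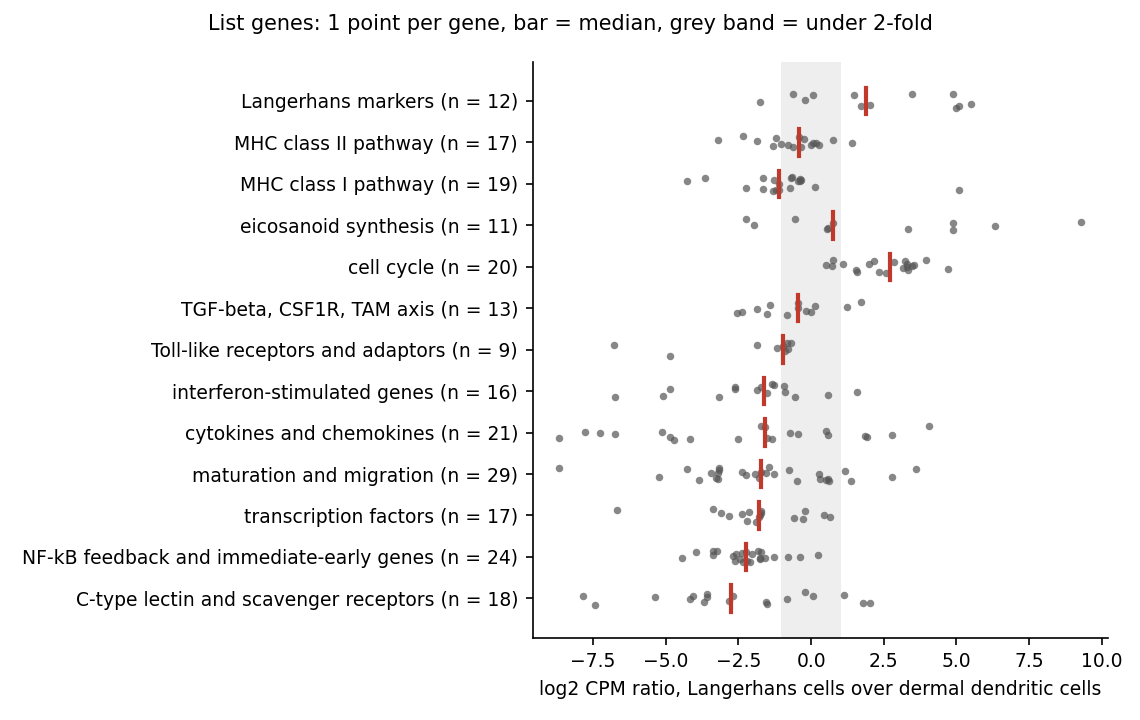
Log2 CPM ratio of Langerhans cells over dermal dendritic cells (x axis) for the genes of 13 lists that reached 20 UMIs in the sum of the pair; each point is 1 gene, red bars are medians and the grey band covers ratios under 2-fold. The NF-kB feedback and immediate-early list (median -2.23) and the cell cycle list (median 2.71) stand on opposite sides of 0. All 9 keratinocyte markers were also higher in this comparison.

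C1q transcripts, usual for macrophages, were present in many Langerhans cells. *C1qa* ran from 0 to 28 UMIs with a median of 1 and was found in 89 of 161 cells, against 1.57% of γδ T cells. At least 3 UMIs of *C1qa*, *C1qb* and *C1qc* together were held by 62 Langerhans cells, 1 γδ T cell and 3 keratinocytes. The cell with the most *C1qa* was one of the 5 low in *Mfge8*, of which 4 were among the 62. These 5 held 70 of 469 *C1qa* UMIs, 68 of 181 of *C1qb* and 40 of 89 of *C1qc*, and without them *C1qa* stood at 271, *C1qb* at 76.8 and *C1qc* at 33.3 CPM. The 58 other carriers had 587 *Cd207* UMIs, 499 *Epcam* UMIs in all 58 cells and 442 *H2-M2* UMIs in 52 cells. Other macrophage transcripts were low in the 62, with 17.3 CPM of *Pf4*, 14.4 CPM of *Ms4a7* and 33.1 CPM of *Lyz2*, and lower in the 58, at 6.11, 3.05 and 6.11 CPM. Of the 62, 1 held 3 or more UMIs of *Pf4* and *Ms4a7*. The dermal cells kept by the same rule had 874 CPM of *C1qa* and 937 CPM of *Pf4*. The dermal dendritic cells were gated on low C1q, so that no ratio to them is given.

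Langerhans cells with mitotic transcripts were counted on 10 genes chosen after their values were seen (*Mki67*, *Top2a*, *Cdk1*, *Ccnb1*, *Ccnb2*, *Ccna2*, *Cdc20*, *Birc5*, *Ube2c* and *Cenpf*). At least 10 such UMIs per 10000 were held by 43 of 161 Langerhans cells (26.7%, 20.1 to 34.2%), 62 of 447 γδ T cells (13.9%, 10.8 to 17.4%) and 1804 of 2994 keratinocytes (60.3%). Of the 62, 14 were among the 24 γδ T cells of over 10000 UMIs, and 48 were among the other 423. Median depths of Langerhans cells, γδ T cells and keratinocytes were 8420, 2423 and 31212.5 UMIs. The shares were not thinned to a common depth. At 20 per 10000 the counts were 25, 10 and 866. At 5 per 10000 the shares were 44.1% (36.3 to 52.1%), 39.4% (34.8 to 44.1%) and 79.2%, and the intervals of Langerhans and γδ T cells overlapped. Since the Langerhans and γδ T cells also held keratinocyte transcripts, the 10 genes were set against *Krt14*. They had 0.0851 UMIs per *Krt14* UMI in keratinocytes, 0.0936 in γδ T cells and 0.252 in Langerhans cells. In the 118 Langerhans cells under the limit the ratio was 0.0913, and in the 43 above it, which the limit chose, 0.440.

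The 43 cells also differed in genes outside the 10. *Hist1h2ap*, a replication-dependent histone, was 8.79-fold higher than in the other 118 (7.14 to 10.9), *Pclaf*, a partner of PCNA, 6.78-fold (4.84 to 9.67) and *Stmn1*, a regulator of microtubules, 6.66-fold (5.63 to 7.91). *Pcna*, the sliding clamp of DNA replication, was 1.97-fold higher (1.34 to 2.88). The median keratin share was 0.459% in the 43 cells and 0.471% in the 118, and the median depth 10010 and 7974 UMIs. Medians do not show the sums, which the folds here use. *Krt14* had 3025 UMIs in the 43 cells and 3536 in the 118, so the 43 held more per cell. The deepest Langerhans cell, with 67736 UMIs and 2.05% keratin, was among the 43. The part of keratinocyte RNA in these folds was not tested. *Cd207* was at 909 and 1020 CPM and *Epcam* at 566 and 719 CPM. None of the 43 held 2 *Ccr7* UMIs. *Ccl22* was found in 11 of the 43 cells and 26 of the 118, and *Il1b* in 14 and 35, which are close shares of cells. Their summed levels were 9.30-fold (6.11 to 14.8) and 3.58-fold lower (2.67 to 4.89) in the 43, but 325 of the 413 *Ccl22* UMIs of the 118 were in 7 cells with *Ccr7*, and against the other 111 *Ccl22* was 2.12-fold lower (1.33 to 3.51) and *Il1b* at 99.8 against 321 CPM. Without the 5 cells low in *Mfge8*, *Il1b* was 3.11-fold lower in the 42 mitotic cells left than in the other 114 (2.27 to 4.36), and at 91.0 against 239.6 CPM without the 7 *Ccr7* cells. Of the 20 genes of the cell cycle list, 17 were at least 2-fold higher in Langerhans cells than in dermal dendritic cells, against 13.7% of all genes. All 9 keratinocyte markers were higher in that comparison too, at a median log2 ratio of 7.58, and the part of keratinocyte RNA was not tested. The 4 of the 20 cell cycle genes that were at least 2-fold lower than in keratinocytes were a share near that of all genes (22.6%). Against γδ T cells 1 of the 20 was higher and none lower, at a median log2 ratio of -0.01 against -0.56 over all genes.

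**Figure D4:**
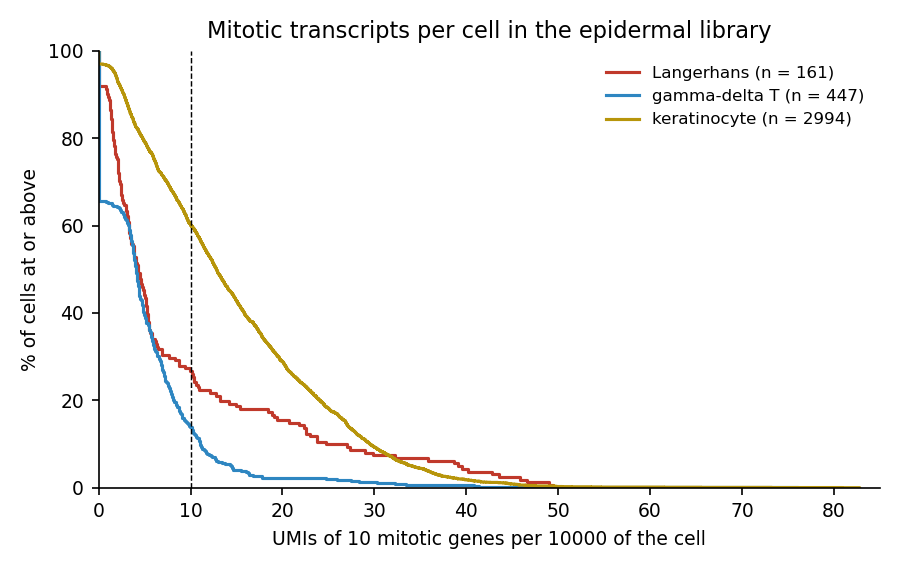
Share of cells (y axis, %) with at least a given number of UMIs of 10 mitotic genes per 10000 UMIs (x axis) among Langerhans cells, γδ T cells and keratinocytes of the epidermal library; the dashed line is the limit of 10. At the limit the curves stand at 26.7%, 13.9% and 60.3%. The γδ T cell curve includes the 24 cells of over 10000 UMIs, and cells were not thinned to a common depth.

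Few Langerhans cells carried *Ccr7*, the receptor for leaving the skin. *Ccr7* had 31 UMIs in 9 of 161 cells, 7 of which held at least 2 UMIs (4.35%, 1.77 to 8.75%). A single *Ccr7* UMI or more was found in 2.68% of γδ T cells and 0.367% of keratinocytes. None of the 2994 keratinocytes and none of the 447 γδ T cells held 2 *Ccr7* UMIs, which at the limit of 3 counts used here for a count of 0 allows up to 0.671% of the γδ T cells, and 16 of 99 dermal dendritic cells did (16.2%, 9.53 to 24.9%). The 7 cells held 3 to 7 *Ccr7* UMIs and had a median depth of 9710 UMIs, against 8418 in the 152 cells without *Ccr7*.

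The 7 cells shared a set of maturation genes. Of 5078 genes with at least 20 UMIs, 620 were at least 2-fold higher in them than in the 152 cells without *Ccr7* (12.2%) and 1218 at least 2-fold lower (24.0%). With a pseudocount of 1 UMI in place of 0.5, 891 were higher and 428 lower. The balance of the 2 counts, and the shares of all genes, thus depend on the pseudocount. *Ccl22* was in all 7 cells, with 11 to 139 UMIs and a median of 21, against 28 of 152 cells, a median of 0 and at most 16 UMIs. The groups overlapped at 11 to 16 UMIs, and the summed level was 85.2-fold higher (66.9 to 109). *Il4i1*, an amino acid oxidase of mature dendritic cells, was in all 7 cells with 1 to 10 UMIs and in 6 of 152, 65.4-fold higher (35.7 to 126). *Fscn1*, the actin bundler fascin, was in 6 of 7 cells and 15 of 152, 28.3-fold higher (16.4 to 49.2). The other genes among the 10 largest ratios were *Samsn1*, *Nr4a3*, *Traf1*, *Fam49a*, *Crip1*, *Slc2a6* and *Rab8b*, of which *Crip1* was the most abundant at 6329 against 583 CPM (10.9-fold, 9.63 to 12.2).

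Of 33 maturation and migration genes, 19 passed the minimum, with 13 higher and 1 lower in the 7 cells at a median log2 ratio of 2.45 against -0.09 over all genes, and *Ccr7*, which chose the cells, is one of them. *Cd83*, a surface mark of maturity, was in 5 of 7 cells and 15 of 152, and *Cd86* was 1.86-fold higher (1.12 to 2.95). Of 16 MHC class I pathway genes 9 were higher and none lower, against 12.2% higher and 24.0% lower of all genes, and *H2-M2* was at 1940 against 511 CPM, 3.79-fold higher (3.12 to 4.59), with 2 to 40 UMIs per cell. *Cd207*, which the rule required in both groups, was at 878 and 978 CPM, and *Mfge8* was 1.25-fold higher (1.16 to 1.35).

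Other genes were lower in the 7 cells. *Epcam* was at 0 UMIs in 4 of them and at 7 UMIs in total, 6.47-fold lower (3.13 to 16.1), whereas 147 of 152 cells without *Ccr7* held it with a median of 6 UMIs. *Cdh1*, which encodes E-cadherin, had 1 UMI in the 7 cells and was found in 100 of 152. The 10 smallest ratios were those of *Ptgs1*, *Cdca3*, *Gpr141*, *Tmem45b*, *Gna15*, *Tspan18*, *Hist1h2ae*, *Tgfbi*, *Abhd17a* and *Cracr2b*, each with 0 UMIs in the 7 cells. *Ptgs1*, found in 124 of the 152, was at least 5.73-fold lower, and *Tgfbi* at least 2.65-fold lower. *Tgfbi* was in 43 of the 152 cells, with 48 of 177 UMIs in 1 of them, and its level in all Langerhans cells, 116 CPM, was below those in γδ T cells and keratinocytes (149 and 186 CPM). Of the 20 cell cycle genes 13 were lower and none higher, against 24.0% lower of all genes. Of 9 keratinocyte markers 3 were lower and none higher, near the share of all genes (24.0% lower), at a median log2 ratio of -0.66 against -0.09. Their summed level was 6483 CPM in the 7 cells and 9534 CPM in the 152, or 8492 CPM without the 1 cell over 2% keratin. The median keratin share per cell did not go this way, at 0.482% in the 7 cells and 0.465% in the 152. The 10 mitotic genes summed to 354 and 1123 CPM. *Epcam* and *Cdh1* stood at 697 and 129 CPM in the 152 cells, above their 56.7 and 33.9 CPM in keratinocytes. The part of keratinocyte RNA in the cell cycle values was not tested.

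**Figure D5:**
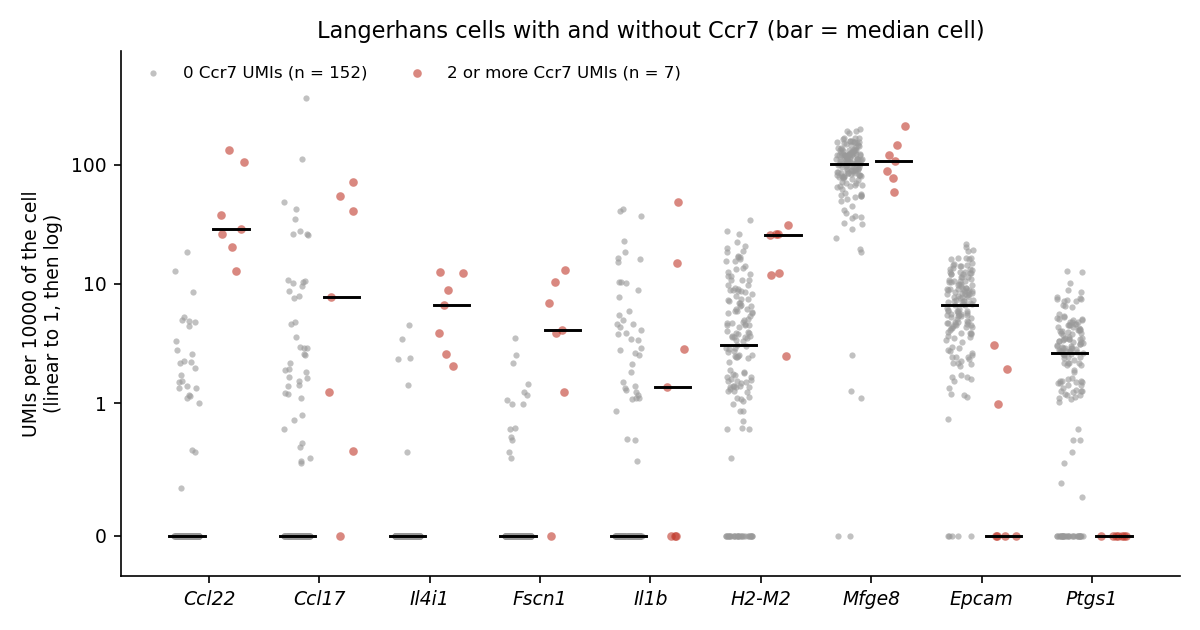
UMIs per 10000 UMIs of the cell (y axis, linear to 1 and then logarithmic) for 9 genes in the 7 Langerhans cells with 2 or more *Ccr7* UMIs and the 152 with 0; each point is 1 cell and bars are medians. *Ccl22* and *Il4i1* were in all 7 cells, *Ptgs1* was in none of them, and *Mfge8* lay in the same range in both groups.

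Chemokine and *Il1b* expression reached beyond the 7 cells. At least 3 UMIs of *Ccl17* and *Ccl22* together were held by 38 cells and at least 3 UMIs of *Il1b* by 27, of which 15 were in both sets (23 and 13 without the 5 cells low in *Mfge8*). Of the 43 cells with mitotic transcripts 8 were in the first set and 6 in the second. Cells without *Ccr7* held 305 of 412 *Il1b* UMIs in 43 cells, or 213 of 320 in 39 cells without those 5, and 676 of 1145 *Ccl17* UMIs in 45 cells. For *Ccl17* 312 of the 676 were in 1 cell, without which such cells held 43.7% of the UMIs. For *Ccl22* it was 85 of 436 UMIs.

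The 15 genes with the most UMIs in Langerhans cells, after those of the rule and gates and mitochondrial and ribosomal protein genes, were *Cst3*, *Tmsb4x*, *Mfge8*, *Fth1*, *Actb*, *Tpt1*, *S100a6*, *Fau*, *Eef1a1*, *Sh3bgrl3*, *S100a4*, *Cd52*, *Lgals3*, *Ppia* and *Gapdh*. The keratinocyte gate gene *Krt14*, with 6561 UMIs, would stand between *Sh3bgrl3* (6590) and *S100a4* (6244). *Cst3*, a cathepsin inhibitor abundant in dendritic cells, ran from 12 to 539 UMIs per cell with a median of 168, and was 2.23-fold higher than in dermal dendritic cells (2.19 to 2.28). *Cd52*, a surface glycopeptide of leukocytes, was at 4072 CPM, against 518 CPM in γδ T cells and 1813 CPM in dermal dendritic cells, and 46.1% of its UMIs in the filtered epidermal cells were in the 161 cells.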

How the data were processed

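The authors deposited 1 gene-by-barcode matrix of raw UMI counts per tissue, made with Cell Ranger (file header 3.0.2) on mm10 with CASAVA reads per the labels, with no filter on cells beyond barcode calling that the sources used here state. The epidermal library held 5258 barcodes and 108768396 UMIs and the dermal 5376 and 41258087. The study itself removed doublets, with DoubletFinder, and cells over 5000 genes or 5% mitochondrial UMIs. The limits on genes and mitochondrial UMIs would have kept 158 of the 161 cells, and its doublet calls were not used here. Here counts were summed per group (Python 3.11.15, numpy 2.4.6, scipy 1.17.1, scanpy 1.11.5). CPM is UMIs per 1000000 UMIs of the group, levels carry exact Poisson intervals, shares exact Clopper-Pearson intervals and ratios exact conditional intervals. Folds against 0 UMIs use a floor of 3 UMIs per group. UMIs count 3′ ends, so levels do not scale with gene length. Keratinocytes had *Krt5*, *Krt14*, *Krt1* and *Krt10* together at 100 or more per 10000 UMIs, 0 *Cd207* and at most 2 *Trdc* UMIs. The γδ T cells had 3 or more *Trdc* UMIs, a *Cd3d*, *Cd3e* or *Cd3g* UMI and 0 *Cd207*. Dermal dendritic cells had the same MHC class II limit and at least 2 UMIs of *Cd209a* and *Flt3* together. Thinning to 1000 UMIs left out 0 Langerhans, 4 γδ T, 134 keratinocyte and 0 dermal cells. Scrublet's own threshold marked 0.133% of epidermal barcodes and was not used, and the cells were kept, with the highest scores left out as an alternative. The ratio code was tested on simulated counts.

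Members and gene lists were chosen with earlier results of these data known. Named genes were the list members with the most UMIs, the 10 largest and 10 smallest ratios per comparison (at least 50 UMIs, 30 for *Ccr7*, in at least 10% of cells of the higher group, without rule, gate, mitochondrial, ribosomal, receptor segment and Gm or Rik genes) and the 15 most abundant genes. Other named genes were picked after their values were seen. Genes with near-identical copies (*Sprr2a3*, *BC100530*, *H2-D1* and *H2-K1*, *Hist1h2ap* and *Hist1h2ae*) are uncertain, since reads may be split or dropped between copies. Promoter sequences are RefSeq's, and 30934 of 31053 gene identifiers matched GENCODE M21 for positions. Alternatives are given in the closing section. The list symbols Ifi30, Il36g and Clec7a matched no feature and were not analysed here. 1 gene of the lists is not reported here by name.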

Additional observations from a re-analysis of the deposited data

How the results depend on the processing

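The number of Langerhans cells and their share with 2 *Ccr7* UMIs stayed within 1.5 times or within their interval under all 8 other sets of cells tried (the filter of the study, a *Cd207* limit of 1 or 4 UMIs, an MHC class II limit of 100, the highest Scrublet scores left out, and keratin over 2% or, chosen after seeing the data, over 1% left out, and, chosen likewise, the 5 cells low in *Mfge8* left out). The *Ccr7* share, 4.35% at 2 UMIs, was 5.59% at 1 UMI and fell to 1.86% at 1 UMI after thinning to 1000 UMIs. Both lay within its wide interval (1.77 to 8.75%). The counts of genes past 2-fold stayed within 1.5 times under those sets, without the 24 deepest γδ T cells, under per-cell means and, with 1 exception, a pseudocount of 1 UMI. The exception was the *Ccr7* comparison, where that pseudocount left 428 lower genes beside 891 higher. The main setting had 1218 lower and 620 higher, so the balance turned. Most followed the minimum of UMIs, which by construction sets how many genes are counted. With no minimum there were 19827 genes higher against keratinocytes, 1619 higher and 5448 lower against γδ T cells, 2954 and 3757 against dermal dendritic cells, and 24134 higher with *Ccr7*. With at least 50 UMIs there were 337 and 1559 against γδ T cells, 509 and 686 against dermal dendritic cells, and 197 and 486 with *Ccr7*. The share of Langerhans cells with mitotic transcripts was 44.1% at 5 and 15.5% at 20 UMIs per 10000 (39.4% and 2.24% of γδ T cells), both limits chosen after seeing the data. Of 207 recomputed levels of 23 named genes, 155 stayed within their counting interval. Without its richest cell *Ccl17* was at 547 CPM, *Ccl22* at 196, *Il1b* at 228, *Cxcl2* at 51.6 and *Cx3cr1* at 4.63 CPM, so that 1 cell decides the level of *Cx3cr1*. Without the 5 cells low in *Mfge8*, *Cxcl2* stood at 48.9 CPM (73.3 with them) and *Mgl2* at 38.0 CPM (51.7). Levels of *Apoe* fell to 365 CPM without the highest Scrublet scores. No paired analysis was possible because there is 1 library per tissue and no replicate number. With 161 cells and 1 library, differences between mice cannot be seen.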
